A study of Mus musculus with 22 samples.

Results

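Replication-dependent histone genes were taken as every row of the deposited FPKM table whose symbol begins with Hist1h, Hist2h, Hist3h or Hist4h. FPKM counts the fragments of a gene relative to its transcript length and to the library's mapped fragments. The rule gave 68 of 22330 genes, read from their symbols as 6 linker histone H1 genes, 18 H2A, 19 H2B, 12 H3 and 13 H4 genes. Mouse embryonic stem cells (ESCs) labelled NF45 KO and NF45 WT (n = 2 each) had been sequenced from poly(A) RNA. A second set held NF110 KO cells, then NF90+NF110 KO cells, and as their control NF90/NF110 WT cells, written below as WT. From these, RNA pulled down by an NF90/NF110 antibody (IP) and RNA of the same lysate before it (input) had been sequenced after removal of ribosomal RNA (n = 3 IPs and 3 inputs per genotype). All groups were grown in serum with LIF, the MEK inhibitor PD0325901 and the GSK3 inhibitor CHIR99021. The replicates are described as biological, but the sources used here do not say whether they were separate cultures or clones, or how each knockout was made. Every p-value is therefore about the spread between these libraries only.

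Core histones H2A, H2B, H3 and H4 form the nucleosome, and H1 binds the linker DNA between nucleosomes. Their replication-dependent genes lie in clusters, have no introns as a rule, and are transcribed as DNA is copied in S phase. Their mRNAs end in a stem-loop that the protein SLBP binds, not in a poly(A) tail, and they are cut at that end by a machinery with the U7 snRNP proteins Lsm10 and Lsm11, so selection on poly(A) captures them poorly. ESCs divide fast and spend much of their cycle in S phase. NF90 and NF110 bind double-stranded RNA with their partner NF45, the product of Ilf2.

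Of the 68 genes, 54 belong to cluster 1 on chromosome 13, 10 to cluster 2 on chromosome 3, 3 to cluster 3 on chromosome 11, and Hist4h4 stands alone on chromosome 6. RefSeq's table for the GRCm38.p6 build placed 67 by synonym, 66 as protein coding and Hist3h2bb-ps as a transcribed pseudogene, while Hist1h2ap matched several entries. Promoter windows from RefSeq, 250 bases before to 50 after the start, were found for 61. Upstream bases of 4 single genes and the whole stretch between the starts of 2 divergent H2A/H2B pairs are shown, because the levels and IP results below turn on these genes and because divergent partners share 1 stretch of DNA. Capitals mark the searched motifs: the CCAAT box (CCAAT, or ATTGG on the other strand), the TATA box (TATAAA, or TTTATA), the octamer ATTTGCAT (or ATGCAAAT) and the H1 box AAACACA (or TGTGTTT). Sequences run 5′ to 3′ on the strand named, the single genes with 150 bases up to the start site. They are Hist1h1c (chr13:23738657-23738806, plus strand), Hist1h3e (chr13:23562386-23562535, minus strand), Hist1h4d (chr13:23581418-23581567, plus strand), Hist3h2ba (chr11:58948761-58948910, plus strand), and on the plus strand the stretches between Hist1h2ae and Hist1h2bg (chr13:23571221-23571399) and between Hist1h2ak and Hist1h2bn (chr13:21753913-21754075).
Hist1h1c: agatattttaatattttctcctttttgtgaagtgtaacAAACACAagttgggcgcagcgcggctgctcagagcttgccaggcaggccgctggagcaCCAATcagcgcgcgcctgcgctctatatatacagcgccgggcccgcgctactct
Hist1h3e: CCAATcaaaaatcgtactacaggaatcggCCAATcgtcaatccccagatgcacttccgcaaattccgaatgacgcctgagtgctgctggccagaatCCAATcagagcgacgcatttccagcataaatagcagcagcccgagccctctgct
Hist1h4d: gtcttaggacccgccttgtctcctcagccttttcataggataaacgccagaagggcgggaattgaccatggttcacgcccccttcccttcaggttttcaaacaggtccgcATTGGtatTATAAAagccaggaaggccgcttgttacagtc
Hist3h2ba: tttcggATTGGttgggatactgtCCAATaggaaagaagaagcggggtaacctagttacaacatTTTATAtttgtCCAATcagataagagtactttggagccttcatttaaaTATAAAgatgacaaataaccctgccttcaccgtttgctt
Hist1h2ae and Hist1h2bg: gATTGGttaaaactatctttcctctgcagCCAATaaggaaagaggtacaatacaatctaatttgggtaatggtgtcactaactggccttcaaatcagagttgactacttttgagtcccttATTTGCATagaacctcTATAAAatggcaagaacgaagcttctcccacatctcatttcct
Hist1h2ak and Hist1h2bn: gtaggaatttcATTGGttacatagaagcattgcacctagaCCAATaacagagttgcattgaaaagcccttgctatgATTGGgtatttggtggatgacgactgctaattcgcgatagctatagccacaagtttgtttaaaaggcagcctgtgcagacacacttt

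In the 300-base windows, a CCAAT box on either strand was present in 52 of 61 members, against 37.4% of 32851 promoter windows in the table. It was found in 6 of 6 H1, 17 of 17 H2A, 16 of 16 H2B, 10 of 10 H3 and 3 of 12 H4 windows. A TATA box was present in 35 of 61 members, against 13.6% of all windows. The octamer was found in 7 of 17 H2A and 6 of 16 H2B windows and in no H1, H3 or H4 window, 13 in all, against 1.74% of all windows. Of 9 windows with the H1 box, 5 were among the 6 H1 genes, 2 were H2A and 2 H2B, against 7.18% of all windows. Windows of divergent pairs overlap, so these counts are not of independent sequences, and a match describes letters and not a binding site.

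In the rRNA-depleted inputs the histone genes were among the highest of all genes, holding 16 of the 50 and 26 of the 100 highest mean FPKM values. By mean FPKM over the 9 inputs, 60 of 68 members had at least 1, 49 at least 100 and 16 at least 1000. The H4 genes held 37.8% of the members' summed FPKM, H2B 20.1%, H3 17.8%, H1 14.4% and H2A 9.87%. Cluster 1 held 87.5% of the sum, cluster 2 9.21%, Hist4h4 2.54% and cluster 3 0.72%. The highest member of each family was Hist1h4d at 3877 (RefSeq H4c4, rank 2 of all genes), Hist1h3e at 2121 (H3c6), Hist1h1c at 1937 (H1f2), Hist2h2bb at 1688 (H2bc18) and Hist1h2ak at 839 (H2ac15). In GRCm38.p6 these lie at chr13:23581568-23581969, chr13:23561475-23562385, chr13:23738807-23739531, chr3:96269700-96270192 and chr13:21753377-21753912. Family medians were 1052 for H1, 1017 for H4, 436 for H3, 199 for H2B and 183 for H2A, so the median H1 and H4 genes stood above the highest H2A gene.

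Divergent H2A/H2B pairs were sought among the 61 members with a promoter window, which gave the strand. Pairs with a member that had none, such as Hist1h2bc, Hist2h2be or Hist3h2bb-ps, are therefore not covered. The 9 pairs found, with starts 163 to 280 bases apart, were not expressed evenly. In 8 of the 9 pairs both genes had a mean input FPKM of at least 1. The H2B gene was the higher in 6 of these and the H2A gene in 2, with ratios between partners of 1.37 to 8.85. Hist1h2bg had 1119 against 219 for Hist1h2ae, whereas Hist1h2ak had 839 against 94.9 for Hist1h2bn. In both pairs the same partner was higher in all 9 inputs, so the order was the same in the 3 genotypes. Of 3 cluster genes known as testis-enriched, Hist1h2ba averaged 31.9 and Hist1h2aa 10.2 FPKM over the 9 inputs. The third, Hist1h1t, was at 4.80, 6.45 and 7.68 FPKM in inputs of NF110 KO cells, 5.23, 4.61 and 4.90 in those of NF90+NF110 KO cells and 6.56, 9.09 and 11.5 in those of WT cells. How reads of near-identical copies were counted is not stated, and 9 members had no recovered read in any of the 22 libraries, and 3 of them still had a mean input FPKM of at least 1 (Hist2h2aa1 41.6, Hist1h4m 21.2 and Hist1h2ap 1.04). Relative to the same measure built from the reads recovered for the gene, FPKM was a median of 1.68 times as high over 54 members (from 1.22 for Hist1h3f to 3.97 for Hist1h4j). Values of single genes depend on how such reads were assigned.

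Depth, as reads assigned to genes, was 14.1 to 19 M in the IPs, 9.5 to 11.9 M in the inputs and 49.1 to 68.8 M in the NF45 libraries. All 7 ESC markers had FPKM of at least 1 in every library, summing to 3724 to 5226, and 8 fibroblast feeder markers summed to 1.26 to 8.64 with Col3a1, Lum, Dcn and Postn under 0.1 throughout. Ilf2 was at 3.92 and 3.79 FPKM in NF45 KO and 264 and 308 in NF45 WT cells, as labelled. For the NF110 KO, NF90+NF110 KO and WT libraries the genotypes rest on the labels. Some libraries stood apart by chromosome. NF45 WT replicate 2 was 0.36 higher (median log2 deviation) for chromosome 13 genes, and 4 of 9 inputs (WT 1, NF110 KO 1 and 2, NF90+NF110 KO 2) and their IPs were higher by 0.22 to 0.25 for chromosome 6 genes, where Hist4h4 lies. Over the NF45 libraries the chromosome 6 median deviation was -0.25 and -0.24 in NF45 KO and 0.27 and 0.24 in NF45 WT cells, so there it moved with genotype; Hist4h4 was not tested in that comparison.

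Poly(A) selection and rRNA depletion gave very different pictures of these genes. Summed FPKM of the 68 members averaged 36830 in WT inputs (n = 3) and 11.7 in NF45 WT libraries (n = 2), a ratio of 3135. By family the ratio was 23065 for H3, 14488 for H4, 2345 for H2A, 1509 for H2B and 1357 for H1. The poly(A) sums below these ratios were near 0. In the 2 NF45 WT libraries they were 0.0956 and 0.461 for H3 and 0.653 and 1.26 for H4. The size and order of the H3 and H4 ratios are therefore uncertain. Recovered reads on members were 113266 to 149644 per input, 1.05% to 1.40% of assigned reads, against 303 to 421 in an NF45 library of several times that depth. The histone genes therefore rest on few reads in the poly(A) libraries: 66 of 68 were under FPKM 1 in all 4, 14 were listed at 0 in all 4, and none was among the 50 highest genes.

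Hist1h1c, an H1 gene, had 1677, 1850.3 and 1768 FPKM in WT inputs, against 0.373 and 0.748 in NF45 WT libraries. Hist1h3e, an H3 gene, had 1704, 1901 and 1841 FPKM in WT inputs, against 0 and 0.0979 in NF45 WT libraries. Hist1h4d, an H4 gene, had 3194, 3796 and 3696 FPKM in WT inputs, against 0.107 and 0.0733 in NF45 WT libraries. No read was recovered for Hist1h4d in any NF45 library, so its poly(A) values rest on no assigned read. For each of these genes every input was far above both poly(A) libraries. Fitted with limma on log2(FPKM + 1), 59 of 60 members tested were higher in WT inputs at a Benjamini-Hochberg adjusted p under 0.05 and none was lower, where 32.9% of all genes tested were called higher, 32.2% lower and 65.2% in either direction. The filter asked for FPKM 1 in 2 of these 5 libraries. Apart from Hist1h2bc and Hist1h1a, the tested members met it only through the WT inputs. The direction of their calls was thus largely set by the filter, and the count only describes the levels. Log2 differences were 11.67 for Hist1h4d, 10.76 for Hist1h3e and 10.15 for Hist1h1c. The members' median was 8.32 and that of all genes 0.01. These values depend on the pseudocount, since many members are near 0 in poly(A) libraries, and the median was 11.11 with a pseudocount of 0.1.

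The smallest difference was that of Hist2h2aa2, the exception, at 1.08 (limma adjusted p = 0.0908), a gene with no recovered read in any library. Next were the pseudogene Hist3h2bb-ps at 3.13, Hist1h2aa at 3.15, Hist1h1t at 3.25 and Hist3h2ba at 3.52. Hist2h2be, an H2B gene, fell under the filter and was not tested: it had 1.41, 0.966 and 0.352 FPKM in WT inputs and 0.818 and 0.867 in NF45 WT libraries, so the 2 kinds of library overlapped. Genes listed for histone mRNA processing, as histone chaperones, or for histone transcription and the cell cycle were mostly lower in WT inputs. Of 18 processing genes, 2 were higher in WT inputs (Sympk at 0.34 and Upf1 at 0.68) and 15 lower. Of 12 chaperone genes 9 were lower, and of 8 transcription and cell cycle genes 1 was higher (E2f1) and 5 were lower. Library kit, cell line, lysate and sequencing differ together between these groups and cannot be told apart.

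**Figure D1:**
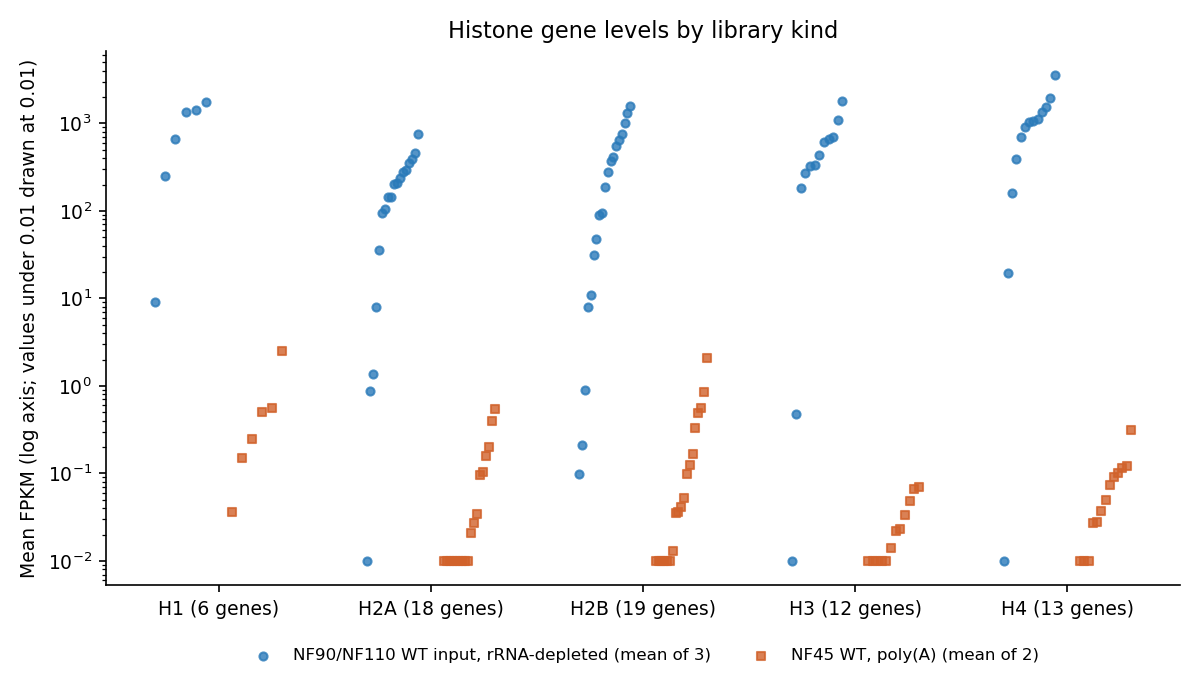
Mean FPKM (log axis, values under 0.01 drawn at 0.01) of each replication-dependent histone gene by family in rRNA-depleted WT inputs (n = 3) and in poly(A) NF45 WT libraries (n = 2). Most input points lie above 100 FPKM, and the only poly(A) points above 1 belong to Hist1h2bc and Hist1h1a.

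The histone genes did not pass the test for a difference between NF45 KO and NF45 WT cells, in libraries that hold little of their RNA. Their summed FPKM was 13.9 and 13.6 in NF45 KO and 11.1 and 12.4 in NF45 WT cells. Hist1h2bc and Hist1h1a were the members that reached FPKM 1 in 2 or more of these libraries, and limma called 0 of these 2 where 27.6% of all genes tested were called. Neither had an unadjusted p under 0.05, and edgeR and DESeq2 on recovered reads called none. Hist1h2bc, an H2B gene that RefSeq annotates over 8282 bases (H2bc4, chr13:23684199-23692480) and whose human counterpart is known to give poly(A) transcripts as well, had 2.99 and 3.12 FPKM in NF45 KO and 1.15 and 3.06 in NF45 WT cells. Hist1h1a, an H1 gene (H1f1, chr13:23763668-23764412), had 2.21 and 1.79 FPKM in NF45 KO and 3.59 and 1.47 in NF45 WT cells. In both genes the KO values lay within or next to the spread of the WT values. The log2 change was 0.46 ± 0.32 for Hist1h2bc (SE, limma adjusted p = 0.327) and -0.17 ± 0.32 for Hist1h1a (0.71).

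NF45 WT replicate 2 had higher values for genes of chromosome 13, where both lie; the part of that shift in the result was not tested. Without it Hist1h2bc was at 0.92 (limma adjusted p = 0.00114) and Hist1h1a at -0.62 (0.00858), in a fit that leaves 1 WT library, takes its spread between replicates from the KO pair alone and assumes that the lone library varies alike. That fit called 5223 of 11316 genes, so these p-values carry little weight. With libraries centred per chromosome Hist1h2bc passed at 0.70 (0.034). The authors' deposited table called 1 member lower, Hist2h2be at -0.71 (adjusted p = 0.0424), where it called 31.4% of genes. Hist2h2be was under FPKM 1 in every NF45 library, at 0.411 and 0.481 in NF45 KO and 0.818 and 0.867 in NF45 WT cells, with no overlap.

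Among 18 genes of histone mRNA processing, 5 fell in NF45 KO cells and none rose, with all 18 tested and a median of -0.15, against -0.03 over all genes. Slbp, whose protein binds the stem-loop, had 55.0 and 57.0 FPKM in NF45 KO and 77.1 and 87.4 in NF45 WT cells. Its KO libraries were both lower than its WT libraries, at a log2 change of -0.54 ± 0.08 (SE, limma adjusted p = 0.0144). Eri1, an exonuclease that trims the stem-loop end, fell by 0.77 on the log2 scale (limma adjusted p = 0.00693), Upf1, a helicase needed for decay of these mRNAs, by 0.63 (0.00749) and Lsm10 by 0.32 (0.0407). Of 12 chaperone genes, Hat1, which acetylates new H4, rose by 0.57 and Asf1b, which hands over H3 and H4, fell by 0.60. Of 8 transcription and cell cycle genes, E2f1 rose by 0.38, Cdc25a by 0.26, and Ccne1 fell by 0.61. Over all genes 11.7% were called higher and 16.0% lower. The number of genes called in the whole table, 3171, depended on single libraries: it was 0 with either KO library left out, 6035 without NF45 WT replicate 1 and 5223 without NF45 WT replicate 2, each fit leaving 1 library in a group.

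Summed histone FPKM in the inputs, the total RNA of each lysate, was higher in each NF110 KO library than in any WT library, but no histone gene passed the test. It averaged 43702 ± 4577 in NF110 KO, 39692 ± 3340 in NF90+NF110 KO and 36830 ± 2514 in WT inputs (SD, n = 3 each). The lowest NF110 KO input, at 38686, stood just above the highest WT input, at 38653. In bulk RNA, more RNA per cell and more cells in S phase cannot be told apart.

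**Figure D2:**
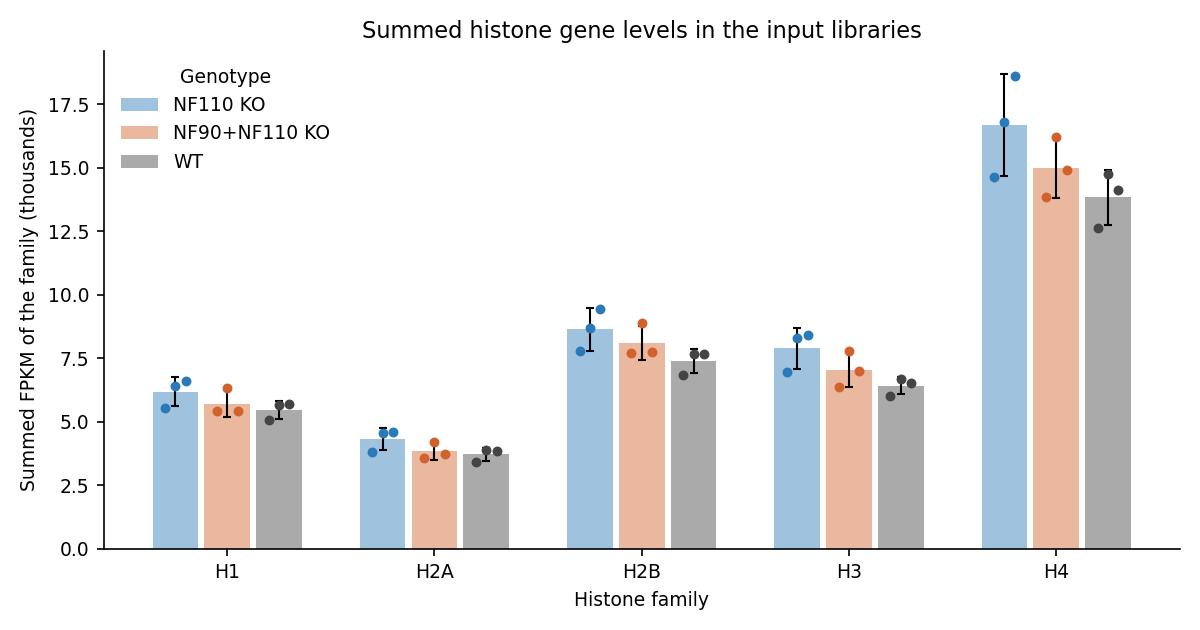
Summed FPKM of the histone genes of each family in the inputs of NF110 KO, NF90+NF110 KO and WT cells, with bars at the mean, error bars of 1 SD and 1 point per library (n = 3). The NF110 KO mean is the highest and the WT mean the lowest in each family, and points of different genotypes lie close together.

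Comparing NF110 KO with WT inputs, limma called 0 of 61 members, where 0.00788% of genes were called. The log2 difference was positive for 57 of 61 members with a median of 0.21, against 0.01 for all genes. Unadjusted p was under 0.05 for 19 members and for 2055 of 12693 genes. All NF110 KO inputs lay above all WT inputs for 20 members, where 10.2% of genes did so. edgeR called 0 members and 0 of all genes. DESeq2 called 1 member, Hist1h3e at 0.41 (DESeq2 adjusted p = 0.0238), where it called 302 of 12693 genes. The chromosome as a whole went the other way: the median log2 deviation of chromosome 13 genes from their mean over the inputs was -0.09 to -0.02 in NF110 KO and 0.03 to 0.08 in WT inputs, and after centring per chromosome the members' median was 0.28 with 0 calls.

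Hist1h3e had 2098, 2643 and 2486 FPKM in NF110 KO, 1958, 2379 and 2075 in NF90+NF110 KO and 1704, 1901 and 1841 in WT inputs. Every NF110 KO and NF90+NF110 KO value was above the highest WT value, at log2 differences of 0.40 ± 0.11 for NF110 KO (SE, limma adjusted p = 0.179) and 0.23 ± 0.11 for NF90+NF110 KO (0.376), which did not pass. Hist3h2ba, an H2B gene of cluster 3 (H2bu2, chr11:58948911-58949372), had 21.1, 17.4 and 17.7 FPKM in NF110 KO, 15.6, 24.3 and 17.2 in NF90+NF110 KO and 11.2, 9.66 and 12.0 in WT inputs. Its WT inputs were the lowest 3 of the 9. Its log2 differences, 0.72 ± 0.16 (SE, limma adjusted p = 0.152) for NF110 KO and 0.73 ± 0.16 (0.114) for NF90+NF110 KO, did not pass in this fit. The authors' deposited table called 4.94% of genes in NF90+NF110 KO against WT inputs, 4.83% in NF110 KO against WT inputs and 0.991% between the knockouts. Hist3h2ba was its 1 member among these 3 input comparisons, at 0.61 in NF90+NF110 KO against WT inputs (deposited DESeq2 adjusted p = 0.0312). Hist1h1t had the opposite sign, at -0.45 in NF110 KO (limma adjusted p = 0.297) and -0.74 in NF90+NF110 KO against WT inputs (0.15).

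**Figure D3:**
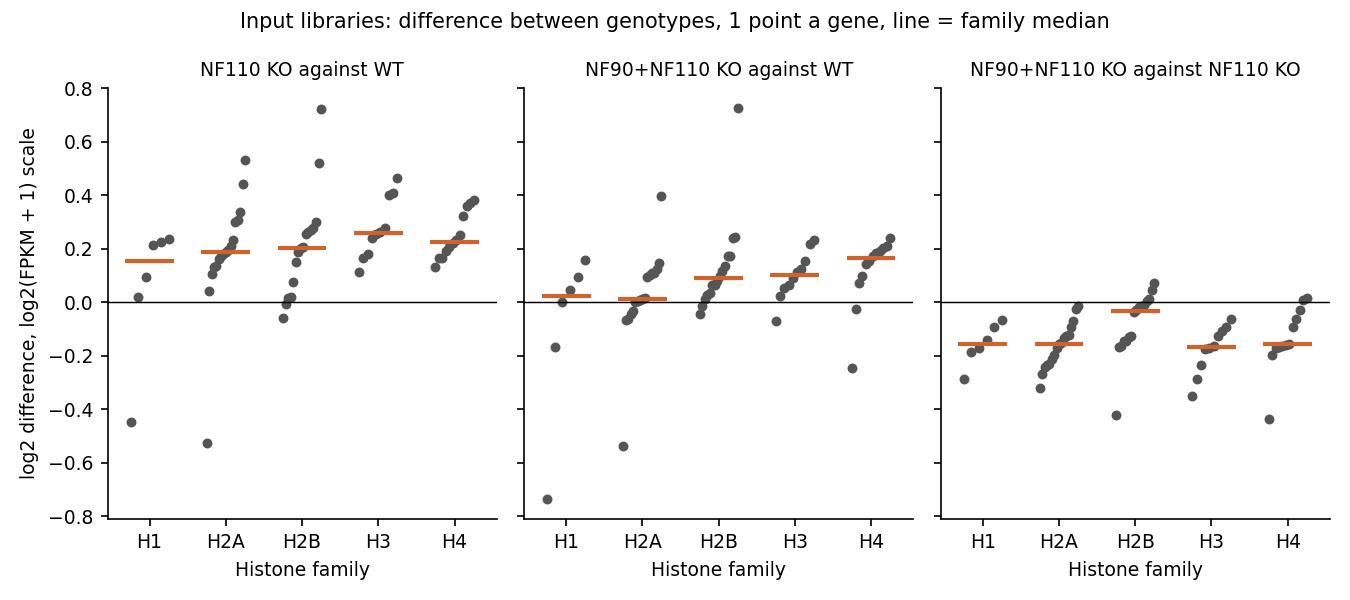
Log2 difference of each member between inputs for NF110 KO against WT, NF90+NF110 KO against WT and NF90+NF110 KO against NF110 KO, by family, from the limma fit on log2(FPKM + 1), with lines at the family medians. In these panels 57, 49 and 6 of 61 points lie above 0, and none passed the test.

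Between NF90+NF110 KO and WT inputs the median log2 difference was 0.10, positive for 49 of 61 members. limma called 0 of 61 where 0.205% of genes were called, edgeR and DESeq2 called 0, and 3 members had an unadjusted p under 0.05. Libraries did not overlap for 10 members, 9 higher (8.97% of genes) and 1 lower (12.4%). Without NF90+NF110 KO 2 the median was 0.0147 with 36 members positive, and without WT 1 it was 0.0263 with 39 positive. NF90+NF110 KO inputs had negative log2 differences from NF110 KO inputs for all but 6 of 61 members, with a median of -0.15 and again 0 calls by limma (0.0473% of genes called), edgeR or DESeq2, and 1 unadjusted p under 0.05. That median was -0.0757 without NF110 KO 3, -0.0851 without NF90+NF110 KO 1 and -0.22 without NF110 KO 1. All NF90+NF110 KO inputs lay below all NF110 KO inputs for 2 members (8.23% of genes) and above for none (6.46%). These 3 comparisons share their libraries. None of the 18 processing, 12 chaperone and 8 transcription and cell cycle genes passed in any of them.

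The IP was made with an antibody against NF90/NF110, so by the labels NF110 KO cells keep NF90 as its target and NF90+NF110 KO cells lack both. Histone genes took a smaller share of the RNA brought down in NF90+NF110 KO cells than of its input, while in NF110 KO and WT cells the members were spread around 0 and the H1 genes were higher. The ratio of summed FPKM in IP over that in its input was 1.13, 1.00 and 0.90 in the NF110 KO experiments, 0.80, 0.90 and 0.77 in the NF90+NF110 KO experiments and 1.19, 1.09 and 1.07 in the WT experiments. FPKM is relative to the library, and the median log2 ratio of all genes was between -0.0002 and 0.027 in each experiment, so a value of 0 means enrichment like that of the typical gene and not absence of binding.

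In NF110 KO cells limma called 7 members higher and 16 lower in IP than in input, of 61 tested, where 21.1% of genes were called higher and 17.0% lower. In NF90+NF110 KO cells it called 0 higher and 44 lower, where 23.4% were called higher and 21.1% lower. In WT cells it called 14 higher and 9 lower, where 28.9% were called higher and 23.6% lower. As shares of the members, 26.2% were lower in NF110 KO, 72.1% in NF90+NF110 KO and 14.8% in WT cells. The higher shares were 11.5% in NF110 KO, 0% in NF90+NF110 KO and 23.0% in WT cells. All 3 experiments had the IP above its input for 11 members in NF110 KO (33.2% of genes), 2 in NF90+NF110 KO (33.1%) and 23 in WT cells (38.7%). They had it below for 18 in NF110 KO (28.2%), 46 in NF90+NF110 KO (31.3%) and 11 in WT cells (32.9%). The members' median log2 ratio was -0.09 in NF110 KO, -0.31 in NF90+NF110 KO and 0.04 in WT cells. In NF110 KO it was -0.16 without NF110 KO 1 and -0.0288 without NF110 KO 3, and in WT cells it was 0.00204 without WT 1 and 0.11 without WT 3. In the authors' deposited table the counts were 2 higher and 3 lower in NF110 KO, 0 and 31 in NF90+NF110 KO and 8 and 6 in WT cells, where it called 8.45% of genes higher and 6.97% lower in NF110 KO, 13.0% and 10.2% in NF90+NF110 KO and 14.1% and 13.0% in WT cells. Listed pathway genes were called in both directions in each genotype, with 9 higher and 1 lower of 18 processing genes in NF110 KO, 6 and 4 in NF90+NF110 KO and 5 and 3 in WT cells. Of the 12 chaperone genes 5 were higher and 1 lower in NF110 KO, 5 and 3 in NF90+NF110 KO and 4 and 4 in WT cells. Of the 8 transcription and cell cycle genes 3 were higher and 3 lower in NF110 KO, 3 and 2 in NF90+NF110 KO and 3 and 3 in WT cells. Without the term that pairs each IP with its own input, the members called in either direction were 3 in NF110 KO, 26 in NF90+NF110 KO and 12 in WT cells. In that order 1865, 2433 and 3491 of 12693 genes were called. In NF110 KO cells 10 members were called without NF110 KO 3 (6 higher, 4 lower), where 3594 of 12666 genes were. Called members were 12 without NF110 KO 2 (5 higher, 7 lower), where 3429 of 12654 genes were. Without the filter on low values 13 were called, where 4472 of 18789 genes were.

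**Figure D4:**
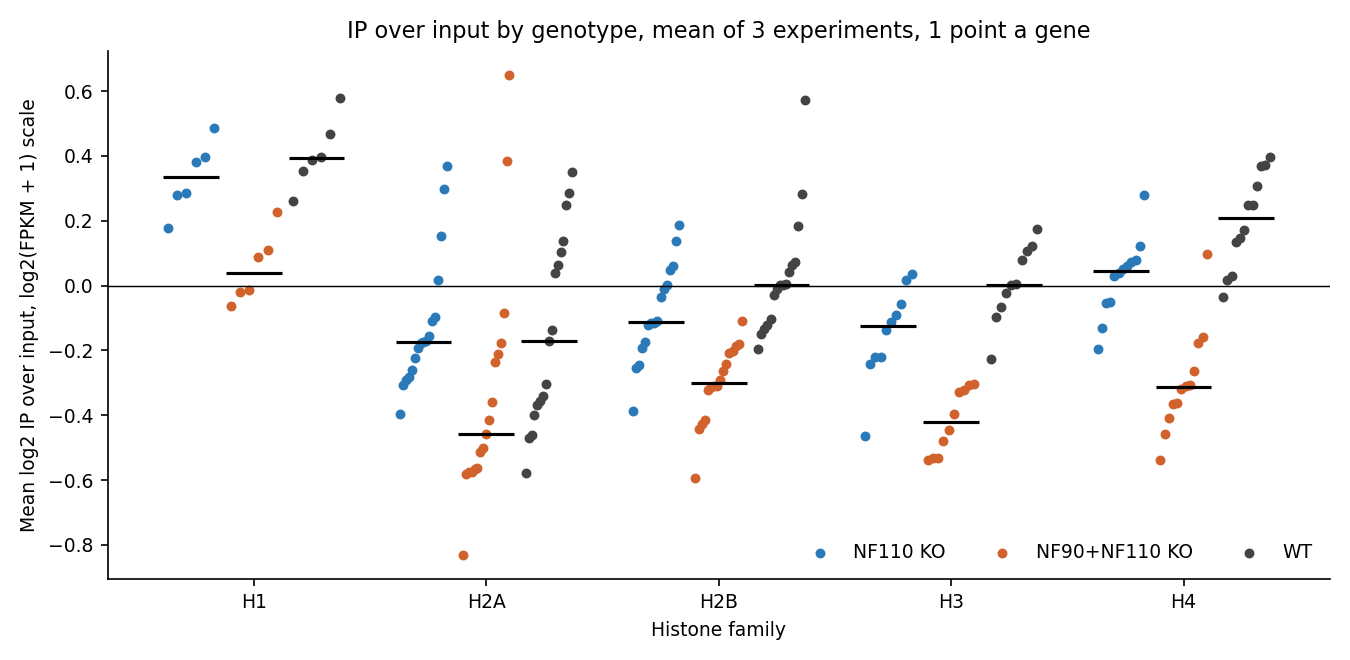
Mean log2 ratio of IP over input over 3 experiments for each member by family in NF110 KO, NF90+NF110 KO and WT cells, 1 point per gene with lines at the family medians. The NF90+NF110 KO median is the lowest of the 3 in every family, at 0.04 for H1 and -0.46 to -0.30 for the core histones. The 2 H2A genes above 0 in NF90+NF110 KO cells are Hist2h2aa2 and Hist1h2ap, for which no read was recovered in any library.

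The families did not behave alike. The H1 genes were the highest within each genotype, with 6 of 6 higher in IP in NF110 KO cells, 0 called in NF90+NF110 KO cells and 5 of 6 higher in WT cells. Their median log2 ratio was 0.33 in NF110 KO, 0.04 in NF90+NF110 KO and 0.39 in WT cells. Hist1h1c had 2592, 2696 and 2273 FPKM in NF110 KO IPs, against 1878, 2260.2 and 2068 in their inputs. It had 1743, 2416 and 1768 in NF90+NF110 KO IPs, against 1876, 2213 and 1842 in their inputs. It had 2367, 2325 and 2077 in WT IPs, against 1677, 1850.3 and 1768 in their inputs. The IPs stood above all inputs in NF110 KO and WT cells and overlapped them in NF90+NF110 KO cells, with log2 ratios of 0.28 ± 0.07 in NF110 KO (SE, limma adjusted p = 0.00532), -0.01 ± 0.07 in NF90+NF110 KO (0.897) and 0.35 ± 0.07 in WT cells (0.000815). Hist1h1a gave log2 ratios of 0.49 in NF110 KO, 0.11 in NF90+NF110 KO and 0.58 in WT cells, the last with limma adjusted p = 5.71e-06.

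The H2A genes were the lowest in IP in every genotype. Of 17 tested, 8 were lower in NF110 KO, 12 in NF90+NF110 KO and 8 in WT cells and none was higher, with median log2 ratios of -0.18 in NF110 KO, -0.46 in NF90+NF110 KO and -0.17 in WT cells. Hist1h2ab (H2ac4, chr13:23751088-23751592) gave log2 ratios of -0.14, -0.32 and -0.41 in the NF110 KO experiments, -0.62, -0.49 and -0.57 in the NF90+NF110 KO experiments and -0.24, -0.34 and -0.62 in the WT experiments. All 9 were below 0, and WT values overlapped those of both knockouts. Hist1h2ak, the most abundant H2A gene, gave -0.00361, -0.28 and -0.39 in the NF110 KO experiments, -0.48, -0.37 and -0.69 in the NF90+NF110 KO experiments and 0.17, -0.05 and 0.00 in the WT experiments. Its WT values were around 0 and above those of NF90+NF110 KO in every experiment. The limma values for Hist1h2ak were -0.22 ± 0.07 (SE, adjusted p = 0.0329) in NF110 KO, -0.51 ± 0.07 (0.00015) in NF90+NF110 KO and 0.04 ± 0.07 (0.689) in WT cells.

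Of 16 H2B genes tested, 1 was higher and 3 lower in NF110 KO IPs, 13 were lower in NF90+NF110 KO IPs and 3 were higher in WT IPs, with medians of -0.11 in NF110 KO, -0.30 in NF90+NF110 KO and 0.00 in WT cells. Hist2h2bb, the most abundant, had 2180.3, 2112 and 1919 FPKM in NF110 KO IPs, against 1763, 1869 and 1816 in their inputs. It had 1358, 1917 and 1410.3 in NF90+NF110 KO IPs, against 1523, 1945 and 1555 in their inputs. It had 2024, 1652 and 1709.5 in WT IPs, against 1630.3, 1517 and 1578 in their inputs. NF110 KO and WT IPs stood above all of their inputs, and NF90+NF110 KO IPs overlapped theirs, with log2 ratios of 0.19 in NF110 KO (limma adjusted p = 0.0171), -0.11 in NF90+NF110 KO (0.126) and 0.18 in WT cells (0.0135). Hist1h2bb (H2bc3, chr13:23746734-23747223) gave 0.24, 0.05 and -0.15 in the NF110 KO experiments, -0.24, -0.13 and -0.35 in the NF90+NF110 KO experiments and 0.35, 0.20 and 0.30 in the WT experiments, each WT ratio above 0 and each NF90+NF110 KO ratio below it.

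All 10 H3 genes tested were lower in NF90+NF110 KO IPs, against 4 lower in NF110 KO and 1 higher and 1 lower in WT IPs, with medians of -0.12 in NF110 KO, -0.42 in NF90+NF110 KO and 0.00 in WT cells. Hist1h3e had 2001, 2161 and 1923 FPKM in NF110 KO IPs, against 2098, 2643 and 2486 in their inputs. It had 1351, 1949 and 1350.0 in NF90+NF110 KO IPs, against 1958, 2379 and 2075 in their inputs. It had 1789, 1896 and 1759 in WT IPs, against 1704, 1901 and 1841 in their inputs. The NF90+NF110 KO IPs lay below all of their inputs, and WT IPs and inputs were alike in range. Log2 ratios were -0.24 ± 0.07 in NF110 KO (SE, limma adjusted p = 0.0125), -0.48 ± 0.07 in NF90+NF110 KO (9.63e-05) and 0.00 ± 0.07 in WT cells (0.998). Hist1h3c (H3c3, chr13:23745042-23745521) gave -0.11 in NF110 KO, -0.44 in NF90+NF110 KO and -0.02 in WT cells.

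Of 12 H4 genes tested, 1 was lower in NF110 KO IPs, 9 were lower in NF90+NF110 KO IPs and 5 were higher in WT IPs, with medians of 0.05 in NF110 KO, -0.31 in NF90+NF110 KO and 0.21 in WT cells. Hist1h4d had 4402, 4355 and 4411 FPKM in NF110 KO IPs, against 3748, 4097 and 4938 in their inputs. It had 3209, 3961 and 3115 in NF90+NF110 KO IPs, against 3555, 4001 and 3868 in their inputs. It had 4109, 4617 and 4461 in WT IPs, against 3194, 3796 and 3696 in their inputs. The WT IPs stood above all WT inputs, and IPs and inputs overlapped in both knockouts, with log2 ratios of 0.05 ± 0.07 in NF110 KO (SE, limma adjusted p = 0.589), -0.16 ± 0.07 in NF90+NF110 KO (0.0844) and 0.31 ± 0.07 in WT cells (0.00266). Hist1h4f (H4c6, chr13:23551286-23551668) gave 0.03, -0.10 and -0.32 in the NF110 KO experiments, -0.48, -0.26 and -0.63 in the NF90+NF110 KO experiments and 0.25, 0.11 and 0.15 in the WT experiments. NF90+NF110 KO values were all negative and WT values all positive.

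**Figure D5:**
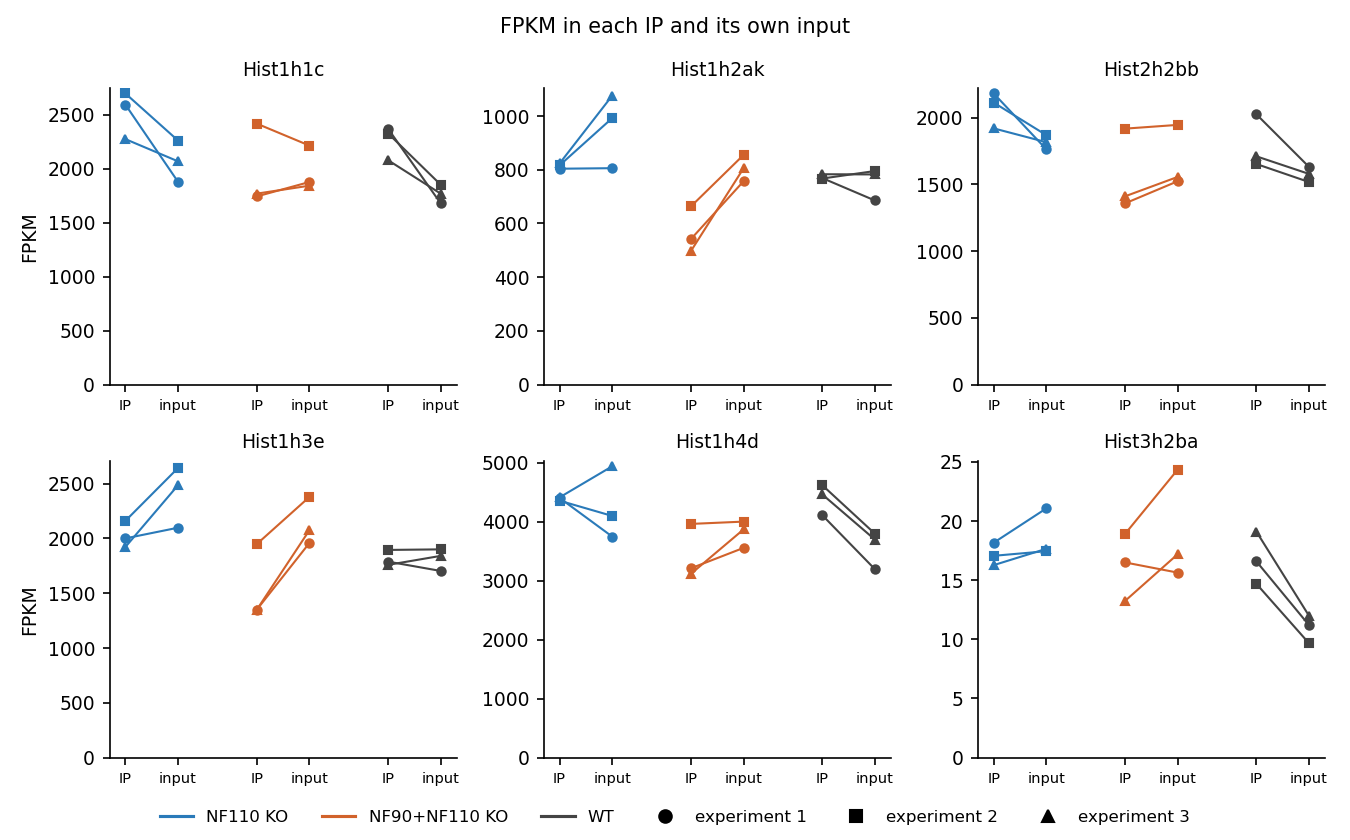
FPKM in IP and in input for 6 histone genes, 1 point per library, with IP and input of each experiment joined by a line, in NF110 KO, NF90+NF110 KO and WT cells. IP points of Hist1h1c lie above their inputs in all NF110 KO and WT experiments, and those of Hist1h3e lie below their inputs in all 3 NF90+NF110 KO experiments.

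Ratios within a library cannot tell a lower IP from a higher input, so the IP levels were also set side by side. Summed FPKM in IP was 42922 to 44861 in NF110 KO, 29433, 39233 and 29769 in NF90+NF110 KO and 40444 to 42171 in WT cells. NF90+NF110 KO experiments 1 and 3 were well below the other genotypes, and experiment 2 was close to WT. NF110 KO IPs lay above all WT IPs for 18 of 61 members (5.44% of genes) and below for none (6.52%). NF90+NF110 KO IPs lay below all WT IPs for 22 (11.7%) and above for none (7.33%), and below all NF110 KO IPs for 36 (11.6%) and above for none (8.74%). FPKM of the ribosomal precursor Rn45s was also lowest in NF90+NF110 KO IPs, but its mean was highest in WT IPs, unlike the histone sum. It was 1810 to 2308 in NF110 KO, 1048 to 1218 in NF90+NF110 KO and 2270 to 2790 in WT IPs. In the inputs Rn45s was lowest in NF90+NF110 KO cells, whereas the mean histone sum was lowest in WT cells. Rn45s was 1451 to 1745 in NF110 KO, 914 to 1065 in NF90+NF110 KO and 1383 to 1651 in WT inputs. Its part in the result was not tested.

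The difference in enrichment between genotypes was tested directly as the interaction of genotype and IP in the same limma fit. The median log2 ratio of the members was -0.31 in NF90+NF110 KO and 0.04 in WT cells, and the median of the differences, coded WT minus NF90+NF110 KO, was 0.37, against 0.01 over all genes. It was positive for 59 of 61 members. limma called 34 members higher in WT and 0 lower, where 4.61% of genes were called higher and 1.21% lower. That is 55.7% of the members tested. The 3 WT experiments lay above the 3 NF90+NF110 KO experiments for 45 members, where 16.6% of genes did so. By family 5 of 6 H1, 2 of 17 H2A, 8 of 16 H2B, 9 of 10 H3 and 10 of 12 H4 genes passed.

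Largest was Hist3h2ba, which had 16.5, 18.9 and 13.2 FPKM in NF90+NF110 KO IPs, against 15.6, 24.3 and 17.2 in their inputs. It had 16.6, 14.7 and 19.1 in WT IPs, against 11.2, 9.66 and 12.0 in their inputs. Its IP values overlapped between these genotypes, and the WT inputs were lower, so its difference of 0.78 ± 0.11 (SE, WT minus NF90+NF110 KO, limma adjusted p = 0.0115) came with an input difference. For the abundant genes named above the differences were 0.63 for Hist1h4f (limma adjusted p = 0.0129), 0.55 for Hist1h2ak (0.0166), 0.48 for Hist1h3e (0.0175), 0.46 for Hist1h4d (0.0217), 0.37 for Hist1h1c (0.0448) and 0.29 for Hist2h2bb (0.0462). Hist1h2ab, at 0.16, did not pass (0.33). Next to Hist3h2ba in size were Hist1h4j at 0.63, Hist1h4h at 0.61, Hist4h4 at 0.61, Hist2h4 at 0.55 and Hist1h3b at 0.54, mostly H4 genes. The chromosome 6 shift that touches Hist4h4 is present in IP and input of the same experiments alike.

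How many passed varied with the libraries and the filter. With no filter on low values 12 members passed, without the pairing of IP and input 0 passed in this or the next 2 comparisons, and leaving out 1 experiment gave 2 (without WT 1, WT 2 or NF90+NF110 KO 1), 4 (without NF90+NF110 KO 3), 30 (without WT 3) or 41 (without NF90+NF110 KO 2), while the members' median stayed between 0.32 and 0.43. In either direction, 739 of 12693 genes passed in the fit reported, 214 of 18789 with no filter and 0 without the pairing. They were 63 of 12646 without WT 1, 13 of 12651 without WT 2 and 13 of 12598 without NF90+NF110 KO 1. They were 49 of 12602 without NF90+NF110 KO 3, 362 of 12650 without WT 3 and 1179 of 12624 without NF90+NF110 KO 2. Hist3h2ba passed in every one of those left-out fits. Of 18 processing genes, Cstf2 (0.28) and Upf1 (0.24) passed as higher in WT, and none of the 12 chaperone or 8 transcription and cell cycle genes did.

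NF110 KO cells, which keep NF90, also stood above NF90+NF110 KO cells. The median log2 ratio was -0.09 in NF110 KO and -0.31 in NF90+NF110 KO cells, and the median difference, NF110 KO minus NF90+NF110 KO, was 0.27 with 58 of 61 positive. limma called 17 higher in NF110 KO and 0 lower, where 6.0% of genes were called higher and 3.91% lower, and experiments did not overlap for 26 (14.8% of genes). The 17 called genes were 2 of 6 H1, 2 of 17 H2A, 3 of 16 H2B, 3 of 10 H3 and 7 of 12 H4 genes. Hist1h4b gave 0.33, 0.07 and -0.03 in the NF110 KO and -0.39, -0.18 and -0.39 in the NF90+NF110 KO experiments, the largest called difference at 0.44 ± 0.09 (SE, limma adjusted p = 0.0192). Hist1h2ae, the lower partner of the pair printed above, gave 0.02, -0.19 and -0.30 in the NF110 KO and -0.59, -0.56 and -0.54 in the NF90+NF110 KO experiments, a difference of 0.41 ± 0.07 (SE, 0.0142). The experiments did not overlap for either gene. No member was called without NF110 KO 2 (6 of 12654 genes in either direction) or NF90+NF110 KO 1 (7 of 12598). Members called were 6 without NF110 KO 1 (1440 of 12654 genes), 7 without NF90+NF110 KO 3 (1159 of 12602) and 26 without NF90+NF110 KO 2 (851 of 12624). Without the filter 1 was called (320 of 18789). Both comparisons use the same NF90+NF110 KO libraries. Of the listed pathway genes, Casp8ap2 (0.42), Ncbp2 (0.35), Nasp (0.37) and Rbbp4 (0.23) passed, each higher in NF110 KO.

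NF110 KO and WT cells differed for 1 member. The median log2 ratio was -0.09 in NF110 KO and 0.04 in WT cells, and the median difference, WT minus NF110 KO, was 0.09 with 46 of 61 positive. That difference was 0.0366 without WT 1 and 0.0401 without NF110 KO 3, against 0.16 without WT 3 and 0.17 without NF110 KO 1. limma called 1 higher in WT and 0 lower, where 6.55% of genes were called higher and 6.8% lower. Experiments did not overlap for 11 members higher (20.6% of genes) and 1 lower (17.0%), so both counts are near or under the background. The called gene was Hist3h2ba, with log2 ratios of -0.20, -0.03 and -0.11 in the NF110 KO and 0.53, 0.56 and 0.63 in the WT experiments, a difference of 0.69 ± 0.11 (SE, limma adjusted p = 0.0169). Its IP FPKM was 18.2, 17.1 and 16.3 in NF110 KO and 16.6, 14.7 and 19.1 in WT cells, overlapping, while its inputs, given above, did not overlap. Its call was lost without WT 3, NF110 KO 2 or NF110 KO 3, fits in which 0 of all genes tested passed. Without NF110 KO 1, 14 members passed, where 2416 of 12654 genes did. NF90+NF110 KO experiments enter through the shared spread. Without experiment 2 of these 5 members passed (1783 of 12624 genes), and without experiment 3 also 5 (1877 of 12602). That most members did not pass does not show that NF110 KO and WT cells were alike: for Hist1h4d the difference was 0.25 ± 0.10 (SE, limma adjusted p = 0.0995). Of the 12 chaperone genes Hat1 (-0.71) and Atrx (-0.48) passed as lower in WT, and of the 18 processing genes 3 passed in each direction.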

How the data were processed

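FPKM values per gene in 22 libraries were deposited by the authors in one table, and size-factor-normalised counts (signal) in another. Per the file headers, DESeq2's results are deposited beside these counts for every comparison the authors made, as a log2 fold change and its error, a score (Wald), a p-value and its adjusted form. The mm10 build is named in the submitters' processing notes, together with HTSeq 0.6.1, DESeq2, Cuffnorm, TopHat2 2.0.10 and Cufflinks 2.2.1. Neither the role of each tool nor the treatment of reads that match several near-identical histone genes is stated. NF45 WT libraries are called Rev in the file headers, without saying what that means. The labels name a stranded poly(A) kit for the NF45 libraries and a stranded rRNA depletion kit for the inputs and IPs.

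Tests were made here with limma 3.58.1 in R 4.3.3 (variance trend, robust) on log2(FPKM + 1) over all genes that reached FPKM 1 in 2 or more of 4 NF45 libraries, 3 of 18 inputs and IPs, or 2 of the 5 libraries compared between kits. A gene was called at a Benjamini-Hochberg adjusted p under 0.05 over all genes tested, in either direction. The fits held 11481 genes and 2 members for NF45 (2 residual degrees of freedom), 12693 genes and 61 members for the 9 inputs (6) and for the 18 RIP libraries, where each experiment has its own term (6), and 12342 genes and 60 members between kits (3). Each IP is paired with its own input by the study's design. Same-numbered libraries of different genotypes were not paired. A member that did not reach FPKM 1 in that many libraries got no test. Members under 1 in some libraries, such as Hist2h2aa2 and Hist1h2ap, were tested. Among the tested members, Hist2h2aa1, Hist2h2aa2, Hist1h2ap and Hist1h4m had no recovered read in any library.

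Dividing the deposited signal by each library's step gave whole reads, with 100% of the nonzero values within 0.1 of a whole number, and these were tested with DESeq2 1.42.0 and with the quasi-likelihood test of edgeR 4.0.16 as alternatives. The other alternatives were no filter, a pseudocount of 0.1, centring of libraries, the replicate block, and leaving out each library or experiment. The fits were tested on simulated data. Members followed in each comparison were the 2 highest of each family in the inputs, then up to 8 called members in each direction without overlap, and called genes of 3 pathway lists. The members and lists were chosen with earlier results of these data known. Promoter sequences came from RefSeq for GRCm38.p6. One check of a targeted gene is not reported here.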

Additional observations from a re-analysis of the deposited data

Results flagged for a closer look

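Enrichment of the histone genes in the IP was looked at again because its difference between genotypes was itself tested. The difference WT minus NF90+NF110 KO passed for 34 members, the largest being Hist3h2ba at 0.78 on the log2 scale. The difference NF110 KO minus NF90+NF110 KO passed for 17 members, the largest being Hist1h4b at 0.44. The difference WT minus NF110 KO passed for 1 member, Hist3h2ba at 0.69. No group has 4 or more libraries, so single libraries were not tested as outliers.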

How the results depend on the processing

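Counts below are members passing adjusted p under 0.05. With no filter on low values they were 3 for NF45 KO against NF45 WT, 13 for IP against input in NF110 KO, 12 for the enrichment difference WT minus NF90+NF110 KO, 1 for NF110 KO minus NF90+NF110 KO and 0 for WT minus NF110 KO. Over all genes that setting called 2847 of 18192 for NF45, and 4472, 214, 320 and 0 of 18789 for the others in that order. The 3 without a filter in NF45 KO were Hist1h4b (0.25) and Hist1h4c (0.15) higher and Hist2h2be (-0.35) lower. Without the term that pairs each IP with its own input (no replicate block) they were 3 in NF110 KO, 26 in NF90+NF110 KO and 12 in WT for IP against input, and 0 for each of the 3 enrichment differences. Of 12693 genes, 1865, 2433 and 3491 were then called for IP against input in that order, and 0 or 1 for each enrichment difference. edgeR gave 33 for NF110 KO minus NF90+NF110 KO (1950 of 12693 genes) and 5 for WT minus NF110 KO (2464 genes). DESeq2 gave 3 for WT minus NF110 KO (1516 genes) and 1 for NF110 KO against WT inputs (302 genes). Centring per chromosome gave 1 for NF45 KO, where it called 3239 of 11452 genes. The cause was not tested. A replicate block by number gave 0 members for NF45 and for each input comparison, as without it, and 2960 genes against 3171 for NF45. With it, 30 members had an unadjusted limma p under 0.05 for NF110 KO against WT inputs, 13 for NF90+NF110 KO against WT and 14 between the knockouts. Without it these were 19, 3 and 1. Correlations of same-numbered inputs were -0.469 to 0.65. Replicate 3 matched its own number best in each pair of genotypes, but replicates 1 and 2 did not in every pair, so the numbers pair the inputs at most in part.

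Leaving out 1 library or experiment gave 0 to 2 members for NF45 KO, 0 to 0 for each of the 3 input comparisons, 10 to 22 for IP against input in NF110 KO, 38 to 45 in NF90+NF110 KO, 21 to 26 in WT, 2 to 41 for WT minus NF90+NF110 KO, 0 to 26 for NF110 KO minus NF90+NF110 KO, 0 to 14 for WT minus NF110 KO and 59 to 60 between kits. The number of genes called in all also varied between these fits, as given above for the enrichment differences. Single genes kept their call or lack of it in 1951 repeats, lost it in 177, gained it in 42 and changed sign in 24, none of the last called in the fit reported.

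Sign changes when 1 library or experiment was left out had these log2 ranges. In NF45 KO they were -0.62 to 0.28 for Hist1h1a (0.0701 with centring per chromosome) and -0.000685 to 0.92 for Hist1h2bc. In NF90+NF110 KO against WT inputs they were -0.0876 to 0.0756 for Hist1h2ab and -0.0327 to 0.14 for Hist2h2bb. For IP against input they were -0.0489 to 0.14 for Hist1h2bb and -0.0373 to 0.16 for Hist1h4d in NF110 KO, and -0.0825 to 0.0339 for Hist1h1c and -0.10 to 0.0223 for Hist1h1d in NF90+NF110 KO cells. In WT cells they were -0.0251 to 0.0833 for Hist1h2ak, -0.0522 to 0.00425 for Hist1h3c and -0.0348 to 0.0331 for Hist1h3e (-0.0404 with edgeR, -0.0267 with DESeq2). For WT minus NF110 KO they were -0.00637 to 0.16 for Hist1h1c, -0.19 to 0.00393 for Hist1h2ab and -0.0684 to 0.0553 for Hist2h2bb (0.00741 with centring on the median).

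In the poly(A) libraries 28 members, Hist1h4d among them, had no recovered read, although these libraries are the deepest, so no value of those members can be compared there. For these members the difference between kits sets the inputs against libraries without an assigned read. How reads of near-identical copies were assigned is not given.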
